A study of Mus musculus with 10 samples.

Results

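The constitutive proteasome module was described in livers of mice lacking Fbp1, the gluconeogenic enzyme fructose-bisphosphatase. Members were the protein-coding genes whose symbol is Psma, Psmb, Psmc or Psmd followed by a digit, without the immunoproteasome genes Psmb8, Psmb9 and Psmb10, plus the transcription factor gene Nfe2l1. The rule used names only, no measured value, and gave 38 of the 53392 genes in the table. Of these, 16 encode the core particle and 20 belong to the regulatory particle, and the other two are Nfe2l1 and Psmc3ip. Psmc3ip carries a proteasome-like symbol but encodes a meiotic recombination factor, so it was counted apart.

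RNA was sequenced from whole livers of 5 Fbp1-deleted mice (replicates 6 to 10) and 5 wild type (WT) mice (replicates 1 to 5), 10 libraries in all. Both groups had the C57BL/6 background, were 24 weeks old and had livers frozen on removal, and no treatment is named for either. The deficiency is labelled as hepatic. The sources used here do not say which promoter or Cre line was used, nor the sex or feeding state. Levels are CPM, counts scaled to a common library size with TMM factors, and a change is log2 Fbp1-deleted minus WT.

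The libraries held between 17778395 and 23894812 counts. Fbp1 ranged from 7.38 to 13.4 CPM in Fbp1-deleted livers, against 778 to 1050 CPM in WT livers, a change of -6.60 (SE 0.19, adjusted p = 6.13e-11, edgeR), so the labels and the targeted gene went the same way in every library. Over the 15392 genes tested the median change was 0.01. The summed level of 6 hepatocyte markers was 77021 to 89315 CPM in Fbp1-deleted livers and 49896 to 92205 CPM in WT livers. Most of this was albumin, Alb, whose lowest value was 32764 CPM in WT replicate 5. Of the 6, Cps1, a urea cycle enzyme gene, was called higher (0.68, adjusted p = 0.0208, edgeR), a call lost on leaving out any of WT replicates 2 and 5 or Fbp1-deleted replicates 6, 9 and 10, with adjusted p up to 0.0541. The other five were not called.

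The proteasome is the main protease for ubiquitin-tagged proteins in the cytosol and nucleus. Its core particle is a barrel of stacked rings: alpha subunits gate the entrance and beta subunits line the chamber, where Psmb5, Psmb6 and Psmb7 carry the cutting sites. The regulatory particle caps the barrel, with a ring of Psmc ATPases that unfold substrates, scaffold and ubiquitin-receptor subunits in the base, and a lid that removes ubiquitin chains. Nfe2l1 encodes a factor made in the endoplasmic reticulum membrane that, once extracted and cleaved, activates proteasome genes through antioxidant-response-like elements, and it is known to be controlled mostly at the protein level. Its loss in mouse liver is known to cause fatty liver disease.

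Promoter sequences, here from RefSeq on GRCm38.p6, are shown because Nfe2l1 and its relative Nfe2l2 are known to bind such elements. The 250 bases before each start were searched on both strands for TGACNNNGC or TGAGNNNGC, and for CCAAT. A promoter was in the table for 31 members, with 37 promoters in all. No entry was found for Psma8, Psmb1, Psmb2, Psmb7, Psmc3, Psmd3 and Psmd7. Capitals below mark the match nearest the start, read on the strand of the gene, in 2 regulatory genes called higher and 2 catalytic core genes. It begins 31 bases before the start in Psmd9, 28 in Psmd12, 47 in Psmb5 and 9 in Psmb6. The Psmd9 and Psmd12 windows lie inside the GENCODE M21 span of their gene, which starts further upstream.
Psmd9, chr5:123228149-123228178, + strand: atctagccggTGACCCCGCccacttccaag
Psmd12, chr11:107479490-107479519, + strand: cctgagtggaTGAGCGGGCgacttccggtg
Psmb5, chr14:54618023-54618052, − strand: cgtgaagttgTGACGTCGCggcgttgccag
Psmb6, chr11:70525327-70525356, + strand: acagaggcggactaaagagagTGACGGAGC

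The element was found in 6 of 13 core promoters (46.15%), in 6 of 18 regulatory promoters (33.33%) and in 4 of 5 Nfe2l1 promoters, some of which overlap, so that they hold 2 distinct elements, against 7560 of all 32851 promoters in the table (23.01%). CCAAT was found in 7 of 13 core promoters (53.85%) and 5 of 18 regulatory promoters (27.78%), against 33.85% of all promoters, and 1 element of the members overlapped a CCAAT. Among the 6 members called higher below, Psmd9 and Psmd12 hold the element in this window. Psma5, Psmc4, Psmd6 and Psmd11 have no match in theirs. Of the core and regulatory genes not called, Psma4, Psma6, Psmb3, Psmb5, Psmb6, Psmc2, Psmc6, Psmd1 and Psmd5 also hold it.

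In Fbp1-deleted livers, 6 core and regulatory particle genes were called higher and none lower, at an adjusted p under 0.05 in edgeR's quasi-likelihood test. They were 1 of the 14 core genes tested and 5 of the 20 regulatory genes tested. Among the 5 is Psmd9, an assembly chaperone and not a subunit of the finished particle. Without the chaperones, 4 of 17 regulatory genes were called higher. For comparison, 10.6% of all genes tested were called higher, 10% were called lower and 20.6% were called either way. The share was 7.14% for core genes, which is 1 gene and near that background, and 25.0% for regulatory genes, above it. Transcripts up to 1 kb and of 1 to 1.5 kb hold 5 and 6 of the core genes. Of all genes in these ranges, 5.86% and 6.31% were called higher. With a transcript length offset, added after seeing the data, 4 of 14 core genes and 9 of 20 regulatory genes were called higher, both shares above the 11.1% of all genes. At an unadjusted p under 0.05, 3 core and 11 regulatory genes were higher, none was lower, and 17.8% of all genes were higher. The median change was 0.07 for the core genes, turning to -0.01 under upper quartile scaling and to -0.02 under scaling by totals, where the median of all genes was -0.06 and -0.08, and to 0.15 with the length offset. It was 0.22 for the regulatory genes and stayed positive under each of these. The count of 6 was 2 when WT replicate 2, Fbp1-deleted replicate 6 or Fbp1-deleted replicate 9 was left out, and 3 when WT replicate 3 was. The count of 5 regulatory genes was 2 on leaving out WT replicate 2, Fbp1-deleted replicate 6 or Fbp1-deleted replicate 9, and 3 on leaving out WT replicate 1, WT replicate 3 or Fbp1-deleted replicate 7. With each of these libraries left out, fewer of all genes tested were called higher as well. Their number fell from 1636 to as low as 1066, without Fbp1-deleted replicate 9.

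The 2 core genes not tested fell under the expression filter. Psma8, the testis form of an alpha subunit, had counts of 12, 5, 1, 5 and 3 in Fbp1-deleted livers, against 36, 40, 5, 12 and 9 in WT livers. Psmb11, the thymus form of a beta subunit, had 7, 2, 4, 12 and 2 counts in Fbp1-deleted livers, against 6, 8, 9, 2 and 2 in WT livers. Both were near the bottom of detection in every liver, and their counts overlapped between the groups. Psma8 was called lower by DESeq2, when no filter was used, and on leaving out WT replicate 3 or WT replicate 5.

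**Figure D1:**
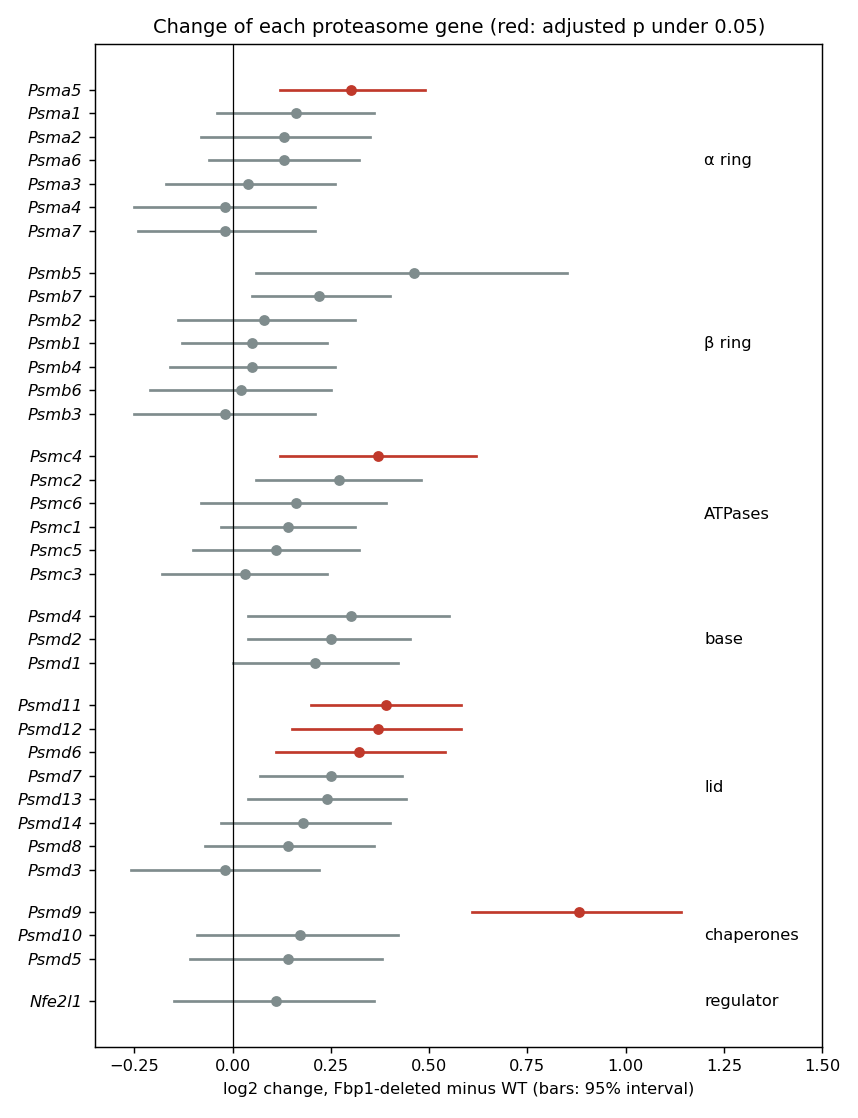
Log2 change, Fbp1-deleted minus WT, of each core and regulatory particle gene tested and of Nfe2l1, with bars for the 95% confidence interval. Red marks genes at an adjusted p under 0.05 and grey marks the others. The regulatory genes reach 0.88 (Psmd9), while the core genes lie between -0.02 and 0.46.

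Among the alpha ring genes, 1 of 7 tested was called higher, and the list's median change was 0.13. Psma5, an alpha ring subunit (chr3:108256926-108279974, + strand), had 58.6, 58.1, 48.5, 55.3 and 53.6 CPM in Fbp1-deleted livers, against 43.4, 43.4, 44.1, 47.2 and 44.2 CPM in WT livers. Every Fbp1-deleted library lay above every WT library, although the lowest was within 2 CPM of WT replicate 4. Psma5 had a log2 change of 0.30 (SE 0.09, adjusted p = 0.0243, edgeR). It was lost, with adjusted p up to 0.113, when libraries were scaled by totals or upper quartiles or no expression filter was used. Leaving out any of WT replicates 2, 3 and 5 or Fbp1-deleted replicates 6 and 9 also ended the call.

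None of the 7 beta ring genes tested passed the threshold in edgeR (2 had an unadjusted p under 0.05, and DESeq2 called Psmb7), and their median change was 0.05. Psmb5, which carries the chymotrypsin-like site (chr14:54614119-54618022, − strand), had 95.1, 125.0, 68.8, 67.1 and 58.9 CPM in Fbp1-deleted livers, against 62.4, 58.8, 52.0, 61.2 and 68.1 CPM in WT livers. Replicates 6 and 7 of the Fbp1-deleted group stood well above the rest, replicate 8 lay just above the highest WT value, and replicates 9 and 10 lay inside the WT range. The change of 0.46 (95% interval 0.06 to 0.85, adjusted p = 0.0938) was the largest of the core genes tested and did not pass. Without Fbp1-deleted replicate 7 it was 0.26, below the 0.28 of Psma5 in the same setting. The change of Psmb5 passed without Fbp1-deleted replicate 10 (adjusted p = 0.0427, edgeR) and with a transcript length offset (adjusted p = 0.0229, edgeR), over a range of 0.0229 to 0.207 in all alternatives.

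Psmb6, which carries the caspase-like site (chr11:70525367-70527858, + strand), had 116.3, 150.2, 129.0, 116.8 and 102.7 CPM in Fbp1-deleted livers, against 124.4, 118.0, 116.5, 115.3 and 133.3 CPM in WT livers. The groups overlapped throughout, and the interval of the change ran from -0.21 to 0.25. Psmb7, which carries the trypsin-like site (chr2:38588036-38644087, − strand), had 117.6, 119.5, 107.3, 115.6 and 106.7 CPM in Fbp1-deleted livers, against 93.4, 93.4, 93.6, 103.3 and 101.4 CPM in WT livers. Its groups did not overlap, but at 0.22 (SE 0.08, adjusted p = 0.071, edgeR) it missed the threshold. The change of Psmb7 passed with DESeq2 (adjusted p = 0.0273) and with the length offset (adjusted p = 0.0182, edgeR), over a range of 0.0182 to 0.292 in all alternatives. Psmb7 shares 405 exonic bases with Nek6 on the other strand, and the library keeps no strand.

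The remaining core genes showed small differences. Psma4, Psma7 and Psmb3 each had a change of -0.02, and these were the only core genes tested with a negative value. Of the 13 core genes tested that were not called, 11 had intervals that held 0, and 12 had an upper bound under a 1.5-fold rise. The exception was Psmb5.

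**Figure D2:**
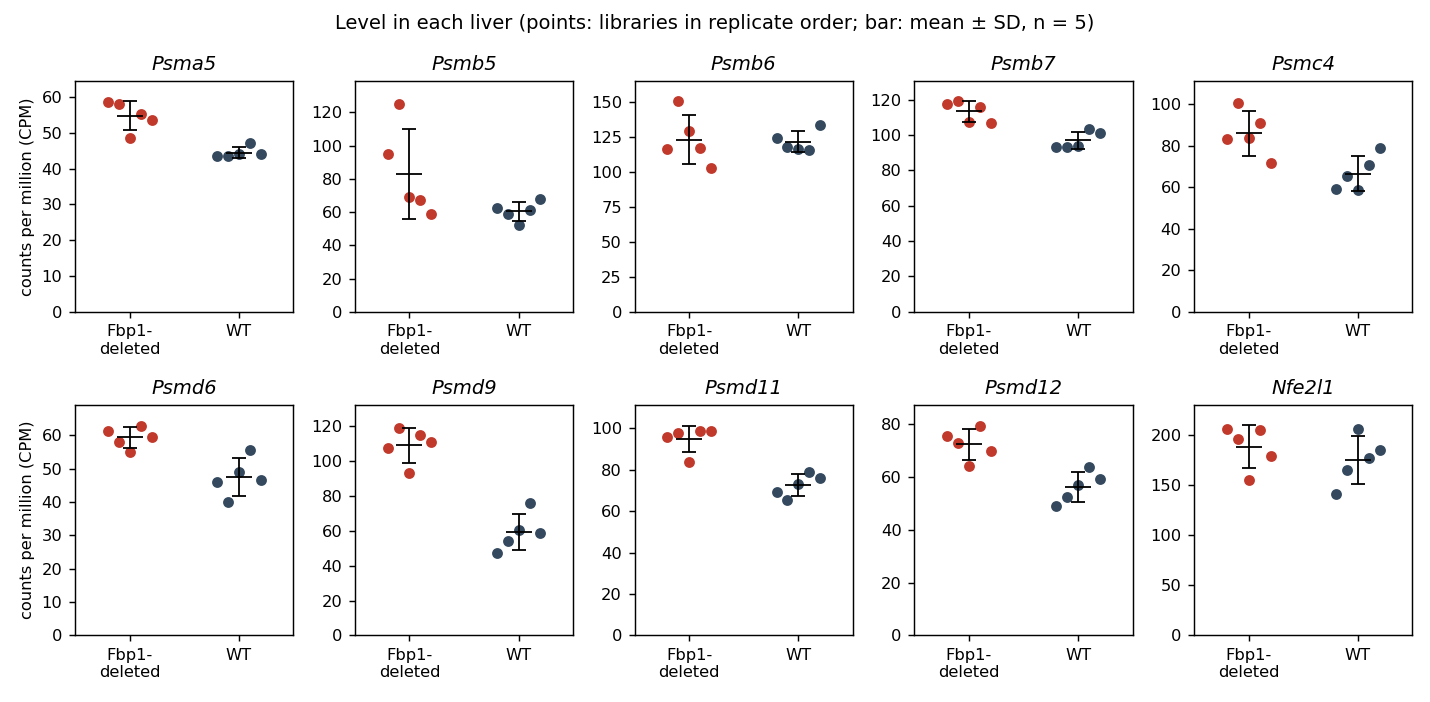
Level (CPM) in each library of the members called higher, of the 3 catalytic beta genes and of Nfe2l1, with Fbp1-deleted livers left of WT livers and bars for the mean ± SD (n = 5). Psmd9 shows the widest gap between groups, with 93.1 to 118.8 CPM in Fbp1-deleted livers and 47.5 to 76.0 CPM in WT livers, and Psmb6 and Nfe2l1 overlap.

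In the regulatory particle, 1 of the 6 ATPase genes was called higher. Psmc4, an ATPase ring subunit (chr7:28041707-28050101, − strand), had 83.3, 100.7, 83.6, 90.8 and 71.4 CPM in Fbp1-deleted livers, against 59.0, 65.5, 58.5, 70.4 and 78.8 CPM in WT livers. Only Fbp1-deleted replicate 10 fell inside the WT range. The log2 change of Psmc4 was 0.37 (SE 0.11, adjusted p = 0.0348, edgeR). All 6 ATPase genes had positive changes, from 0.03 to 0.37, with a median of 0.15. The nearest to the threshold after Psmc4 was Psmc2 at 0.27 (adjusted p = 0.0694, edgeR).

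None of the 3 base genes outside the ATPase ring passed, although each had an unadjusted p under 0.05, and their changes were between 0.21 and 0.30. They include Psmd2, a large scaffold that docks ubiquitin shuttles, at 0.25 (adjusted p = 0.0857, edgeR), and Psmd4, a ubiquitin receptor, at 0.30 (adjusted p = 0.0905, edgeR).

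Among the 8 lid genes, 3 were called higher and the median change was 0.24. Psmd11, a lid scaffold that bridges to the core particle (chr11:80428615-80473248, + strand), had 95.8, 97.6, 83.5, 98.8 and 98.6 CPM in Fbp1-deleted livers, against 69.2, 65.5, 73.0, 78.8 and 76.1 CPM in WT livers. The groups did not overlap, and Psmd11 had a log2 change of 0.39 (SE 0.09, adjusted p = 0.00892, edgeR). Psmd12, another lid scaffold (chr11:107479484-107504362, + strand), had 75.5, 72.9, 64.0, 79.4 and 70.0 CPM in Fbp1-deleted livers, against 48.9, 52.3, 56.8, 63.7 and 59.1 CPM in WT livers. Its lowest Fbp1-deleted value, 64.0 CPM, lay just above the highest WT value, and Psmd12 had a log2 change of 0.37 (SE 0.10, adjusted p = 0.0191, edgeR). It missed the threshold, with adjusted p up to 0.0567, on leaving out any of WT replicate 2 and Fbp1-deleted replicates 6 and 9.

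Psmd6, also a lid scaffold (chr14:14112174-14120984, − strand), had 61.4, 58.1, 55.0, 62.9 and 59.4 CPM in Fbp1-deleted livers, against 46.1, 39.9, 49.0, 55.6 and 46.5 CPM in WT livers. Fbp1-deleted replicate 8 and WT replicate 4 overlapped by less than 1 CPM, and Psmd6 had a log2 change of 0.32 (SE 0.10, adjusted p = 0.0329, edgeR). The calls of Psmc4 and Psmd6 were lost under library totals, upper quartiles or no expression filter, and on leaving out any of WT replicates 1, 2 and 3 or Fbp1-deleted replicates 6, 7 and 9. That of Psmd6 was also lost on leaving out WT replicate 5 or Fbp1-deleted replicate 10. The highest adjusted p over these alternatives was 0.0964 for Psmc4 and 0.0932 for Psmd6. Psmd7, the partner of the lid's deubiquitinase, had groups that did not overlap and a change of 0.25, just outside the threshold (adjusted p = 0.0503, edgeR). The change of Psmd7 passed in 5 of 20 alternatives, among them DESeq2 (adjusted p = 0.0183), limma-voom (adjusted p = 0.0458) and leaving out Fbp1-deleted replicate 8 (adjusted p = 0.0428, edgeR). Psmd3 was the only regulatory gene with a negative change, -0.02.

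The 3 chaperone genes help to assemble the base and leave the finished particle. Psmd9 had the largest change of the core and regulatory genes tested. It had 107.4, 118.8, 93.1, 115.1 and 110.7 CPM in Fbp1-deleted livers, against 47.5, 54.0, 60.3, 76.0 and 58.8 CPM in WT livers. The groups were well apart, and Psmd9 had a log2 change of 0.88 (SE 0.12, adjusted p = 0.000415, edgeR), a 1.84-fold higher level. The other chaperone genes, Psmd5 and Psmd10, had changes of 0.14 and 0.17 and were not called.

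Psmd9 lies on chromosome 5 (chr5:123169413-123250131, + strand), and its annotated span overlaps Hpd, a very abundant liver gene of tyrosine breakdown on the other strand, with which it shares 0 exonic bases. Hpd averaged 3905 ± 416 CPM in Fbp1-deleted livers and 3270.4 ± 162 CPM in WT livers (SD, n = 5 each, adjusted p = 0.0956, edgeR). Psmd9 also shares 1849 exonic bases with the noncoding gene Gm26745 on the other strand. The estimated counts given to Gm26745 were 35, 43, 23, 36 and 0 in Fbp1-deleted livers, against 0, 0, 0, 0 and 14 in WT livers. Without strand, reads of the shared bases cannot be told apart.

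Of the 15 regulatory genes not called, 9 had intervals that held 0 and 6 had intervals above 0, and all 15 upper bounds were under a 1.5-fold rise. Groups did not overlap, with Fbp1-deleted above WT, for 2 core genes (Psma5 and Psmb7) and 5 regulatory genes (Psmc1, Psmd7, Psmd9, Psmd11 and Psmd12), where 6.57% of all genes tested had that pattern. No member tested lay wholly below WT, where 6.89% of all genes did.

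The core and regulatory particles were then compared within each liver. The mean log2 CPM of the 14 core genes was 6.41, 6.49, 6.24, 6.31 and 6.26 in Fbp1-deleted livers, against 6.33, 6.24, 6.13, 6.18 and 6.30 in WT livers. These ranges overlapped. The mean log2 CPM of the 20 regulatory genes was 6.20, 6.24, 6.06, 6.20 and 6.06 in Fbp1-deleted livers, against 5.84, 5.83, 5.87, 6.01 and 5.99 in WT livers. With TMM factors every Fbp1-deleted liver was above every WT liver, by 6.06 against 6.01 at the closest. This order depends on the scaling. Without the TMM factors, 1.062 in WT replicate 5 and 0.98 in Fbp1-deleted replicate 10, the groups would overlap.

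The regulatory minus core difference was -0.20, -0.25, -0.18, -0.11 and -0.20 in Fbp1-deleted livers, against -0.48, -0.40, -0.26, -0.17 and -0.31 in WT livers. It averaged -0.19 ± 0.05 in Fbp1-deleted livers and -0.32 ± 0.12 in WT livers (SD, n = 5 each). The slope on log2 transcript length of each gene's log2 CPM less its mean of all libraries, over all protein-coding genes tested, was 0.045, -0.059, 0.051, 0.055 and 0.083 in Fbp1-deleted livers, against -0.123, -0.057, 0.022, 0.023 and -0.041 in WT livers. WT replicates 1 and 2, with the lowest differences, had the lowest slopes of their group. WT replicate 4 lay inside the Fbp1-deleted range of the difference, and the shift was not tested, since it is a score over the members.

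**Figure D3:**
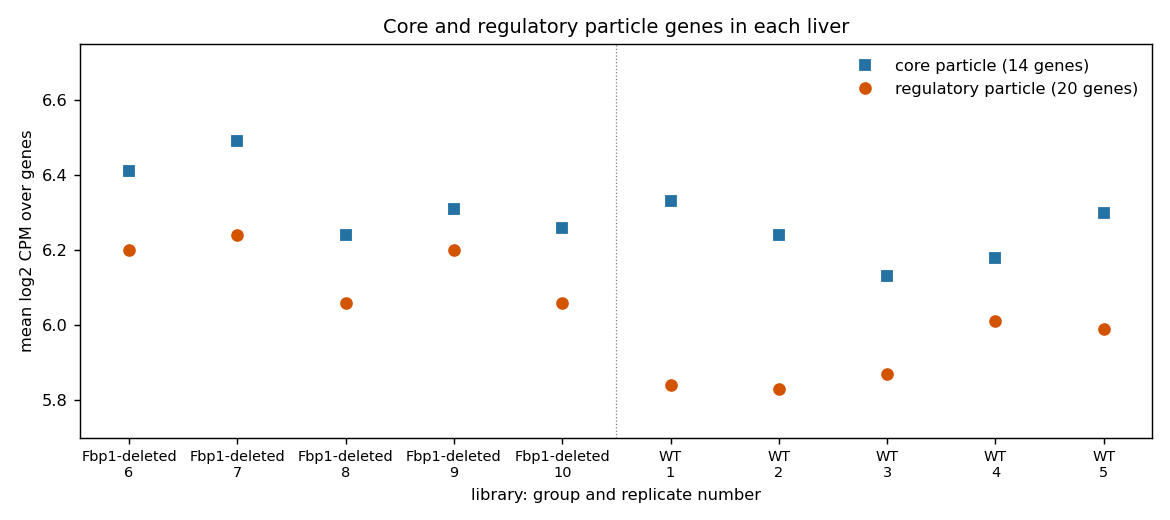
Mean log2 CPM of the 14 core genes (squares) and 20 regulatory genes (circles) in each library, Fbp1-deleted livers left of WT livers. With TMM factors, the regulatory values are 6.06 to 6.24 in Fbp1-deleted livers and 5.83 to 6.01 in WT livers, while the core values overlap.

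Within a group, many members had their highest or lowest value in the same livers. Fbp1-deleted replicate 7 had the highest value of its group for 20 of 34 subunit and chaperone genes, and replicates 8 and 10 had the lowest for 14 and 17. In WT livers, replicate 1 was highest for 6 core genes and lowest for 8 regulatory genes, while replicate 4 was highest for 10 regulatory genes. The median SD of log2 CPM over core genes was 0.13 in Fbp1-deleted livers and 0.12 in WT livers. Over regulatory genes it was 0.13 in Fbp1-deleted livers and 0.15 in WT livers. For all genes it was 0.26 in Fbp1-deleted livers and 0.25 in WT livers. For 3277 genes with an average log2 CPM of 5 to 7.5 it was 0.18 in Fbp1-deleted livers and 0.17 in WT livers. The core and regulatory genes ranged from 3.36 to 7.31, so some lay below these bounds.

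Levels between genes were compared as CPM per kb of the principal transcript, averaged over the 10 libraries. Core genes spanned 8.19-fold, with Psma2, an alpha ring subunit, lowest at 18.7 and Psmb6 highest at 153.2. Regulatory genes spanned 12.9-fold, with the chaperone gene Psmd5 lowest at 5.66, Psmd10 next at 7.08, and the ATPase gene Psmc1 highest at 73.1. The median was 78.6 for the core and 41.2 for the regulatory genes. With the length of all exons in place of the principal transcript, Psmb5 was highest in the core.

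Core transcripts are short, with a median of 1162.5 bases, against 1844.5 for regulatory transcripts and 2920 for all genes tested. Changes of all genes moved with length. The median was -0.12 for transcripts up to 1 kb, -0.09 at 1 to 1.5 kb, -0.04 at 1.5 to 2 kb, 0.00 at 2 to 3 kb, 0.04 at 3 to 4 kb and 0.10 over 4 kb. The share called higher was 5.86% in the shortest range and 12.9% in the longest. In the 1 to 1.5 kb range the median change was 0.14 for 6 core genes, of which 1 was called higher, and 0.25 for 4 regulatory genes, of which 2 were.

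At 1.5 to 2 kb the change was 0.05 for the 1 core gene, and the median was 0.24 for 9 regulatory genes. At 2 to 3 kb the median was 0.09 for 2 core genes and 0.25 for 5 regulatory genes. The 5 core genes up to 1 kb had a median of 0.02. All of these lay above the median of all genes in their range. The 13 members called higher with the length offset included 4 of the core, Psma1, Psma5, Psmb5 and Psmb7. The part of length in the difference between the particles was not otherwise tested.

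**Figure D4:**
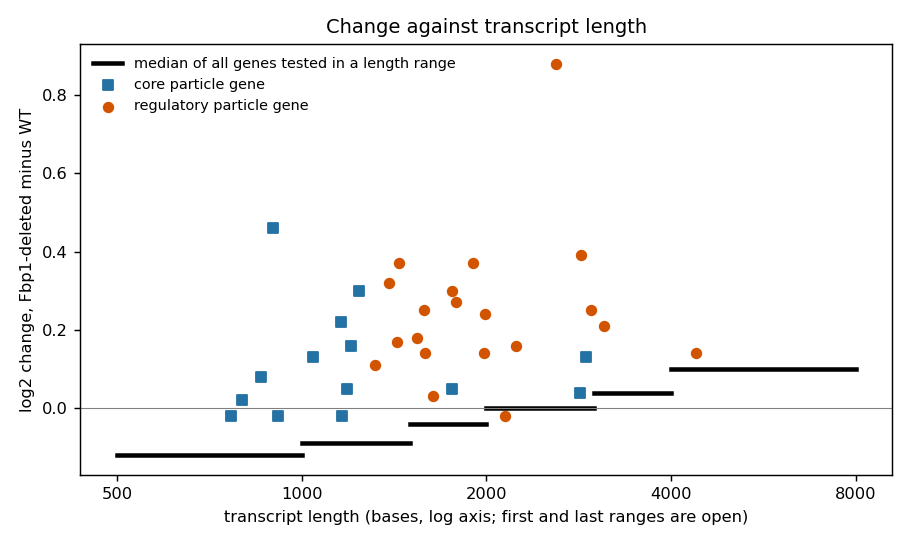
Log2 change, Fbp1-deleted minus WT, against transcript length on a log axis, with core genes as squares, regulatory genes as circles and the median of all genes in each length range as a line. The line climbs from -0.12 to 0.10, and in the 1 to 1.5 kb range the core median is 0.14 and the regulatory median 0.25.

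Nfe2l1 (chr11:96817414-96829968, − strand) had 205.7, 195.7, 155.0, 205.0 and 179.3 CPM in Fbp1-deleted livers, against 141.1, 165.0, 206.1, 176.4 and 184.8 CPM in WT livers. The groups overlapped, and Nfe2l1 had a log2 change of 0.11 (95% interval -0.15 to 0.36, adjusted p = 0.558, edgeR). Psmc3ip, the recombination factor, was at 0.898 ± 0.304 CPM in Fbp1-deleted livers and 0.528 ± 0.149 CPM in WT livers (SD, n = 5 each) and was not called (adjusted p = 0.137, edgeR).

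Of 12 tested genes that process, degrade or partner Nfe2l1 or are related to it, 7 were higher (58.3%, against 10.6% of all genes tested) and 1 lower. Whether these calls bear on Nfe2l1, which was itself not called, was not tested. Vcp, the ATPase that pulls proteins from the endoplasmic reticulum membrane, had 439.3, 415.0, 346.2, 424.5 and 354.3 CPM in Fbp1-deleted livers, against 240.4, 273.3, 287.2, 333.2 and 334.9 CPM in WT livers, with no overlap. Its change was 0.43 (adjusted p = 0.0198, edgeR). Sel1l, a scaffold of the retrotranslocation ligase, had 264.7, 217.6, 132.2, 270.2 and 129.4 CPM in Fbp1-deleted livers, against 76.6, 94.2, 118.7, 122.5 and 99.3 CPM in WT livers, a change of 0.99 (adjusted p = 0.011, edgeR). Fbp1-deleted replicates 8 and 10 lay just above the WT range, well below the other three. Ngly1, the glycanase that edits Nfe2l1, changed by 0.37 (adjusted p = 0.0294, edgeR). Btrc, a ligase adaptor, changed by 0.52 (adjusted p = 0.0144, edgeR), while Mafg, a small Maf partner, fell by 0.45 on the log2 scale (adjusted p = 0.0184, edgeR). The others called higher were Syvn1, the ligase that Sel1l holds, and the small Maf genes Mafk and Maff. Syvn1 had 228.5, 240.4, 56.8, 196.0 and 68.1 CPM in Fbp1-deleted livers, against 48.7, 46.9, 53.1, 65.2 and 49.0 CPM in WT livers, so replicates 8 and 10 again lay at or near the WT range. It was given in every library after its values were seen. The call of Syvn1 held in 13 of 20 alternatives. It was lost with no expression filter. Leaving out any of WT replicates 1, 2, 3 and 5 or Fbp1-deleted replicates 6 and 9 also ended it. The call of Mafk held in 15. It was lost under library totals and on leaving out WT replicate 3 or any of Fbp1-deleted replicates 6, 7 and 9. The call of Maff held in 7. It was lost under upper quartiles, library totals, no filter, limma-voom and the length offset. Leaving out any WT replicate or any of Fbp1-deleted replicates 7, 9 and 10 also ended it. Nfe2l2 was not called, at 0.38 (adjusted p = 0.12, edgeR). Nor were Ddi2 at 0.04, Fbxw7 at 0.02 and Nfe2l3 at 0.55 (edgeR adjusted p = 0.828, 0.924 and 0.314).

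Among 11 cofactors of Vcp and membrane extraction genes, 5 were higher (45.5%, against 10.6% of all genes tested) and none lower. All 11 changes were positive. Derl2 and Derl1, channel proteins of extraction, changed by 0.75 (adjusted p = 0.000538, edgeR) and 0.73 (adjusted p = 0.000885, edgeR). Ubxn4 changed by 0.60 and Nploc4 by 0.55. The other gene called higher was Derl3, at 4.02 (adjusted p = 0.0454, edgeR). Derl3 had 38.9, 46.3, 3.2, 52.2 and 1.43 CPM in Fbp1-deleted livers, against 0.541, 0.94, 1.03, 6.01 and 0.411 CPM in WT livers. Fbp1-deleted replicates 8 and 10 thus lay inside the WT range. These values were given after they were seen, and the call of Derl3 was not followed through the alternatives. Of 10 genes for ubiquitin, its activating enzyme Uba1 and its shuttles 1 was higher (10%, near the share of all genes), the shuttle gene Ubqln1 (0.33, adjusted p = 0.0233, edgeR). Of 3 proteasome-bound deubiquitinase and ligase genes 1 was higher, the ligase Ube3c (0.43, adjusted p = 0.0334, edgeR). None of the 5 core assembly chaperone genes was called, and their median was -0.17. Neither subunit gene outside the rule, Adrm1 or Sem1, was called. The calls of Vcp, Ngly1, Ubqln1, Ube3c, Nploc4 and the activator gene Psme3 were each lost, with adjusted p up to 0.0874 (Ube3c, edgeR), on leaving out any of WT replicate 2 and Fbp1-deleted replicates 6 and 9. The call of Mafg was lost without Fbp1-deleted replicate 6. Others were lost on leaving out WT replicate 1 (Ngly1 and Ube3c), 3 (Ngly1) or 5 (Ubqln1, Ube3c and Nploc4) or Fbp1-deleted replicate 7 (Nploc4) or 10 (Ngly1, Ube3c and Nploc4). Calls were also lost under library totals (Ngly1, Ubqln1 and Ube3c), no expression filter (Ngly1 and Ubqln1) or upper quartiles (Ngly1).

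All 3 immunoproteasome genes, which are induced by interferon and shape peptides for antigen presentation, were lower in Fbp1-deleted livers. Psmb8 averaged 25.1 ± 2.95 CPM in Fbp1-deleted livers and 39.5 ± 5.75 CPM in WT livers (SD, n = 5 each), a change of -0.65 (adjusted p = 0.00231, edgeR). Psmb9 averaged 8.76 ± 2.01 CPM in Fbp1-deleted livers and 19.3 ± 8.11 CPM in WT livers (SD, n = 5 each), a change of -1.14 (adjusted p = 0.0179, edgeR), which missed the threshold only when no expression filter was used (adjusted p = 0.0723, edgeR). Psmb10 averaged 26.9 ± 5.49 CPM in Fbp1-deleted livers and 58.6 ± 10.5 CPM in WT livers (SD, n = 5 each), a change of -1.12 (adjusted p = 0.000332, edgeR). The interferon-induced activator genes Psme1 and Psme2 were also lower, with log2 changes of -0.56 and -0.59 (edgeR adjusted p = 0.00226 and 0.00613), while the nuclear activator gene Psme3 rose by 0.39 (adjusted p = 0.0194, edgeR).

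Summed per kb, the 3 constitutive catalytic genes over the 3 immunoproteasome genes gave ratios of 9.25, 9.17, 6.30, 9.19 and 7.24 in Fbp1-deleted livers, against 3.03, 2.93, 4.08, 4.75 and 4.02 in WT livers. The ratio was higher in all Fbp1-deleted livers, and the groups did not overlap. The immunoproteasome sum was 34.9 to 52.5 CPM per kb in Fbp1-deleted livers and 63.4 to 100.8 CPM per kb in WT livers, while the constitutive sum overlapped.

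Leukocytes and Kupffer cells are rich in immunoproteasome. Of 6 leukocyte markers, 2 were lower and none higher, and of 4 Kupffer cell markers, 2 were lower and none higher. Together these 10 markers summed to 270, 232, 319, 200 and 276 CPM in Fbp1-deleted livers, against 395, 419, 387, 308 and 384 CPM in WT livers. These sums overlapped between the groups, with Fbp1-deleted replicate 8 above WT replicate 4. No marker was at 0. The part of these cells in the immunoproteasome difference was not tested, and in bulk tissue fewer cells of a type and less RNA per cell cannot be told apart.

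**Figure D5:**
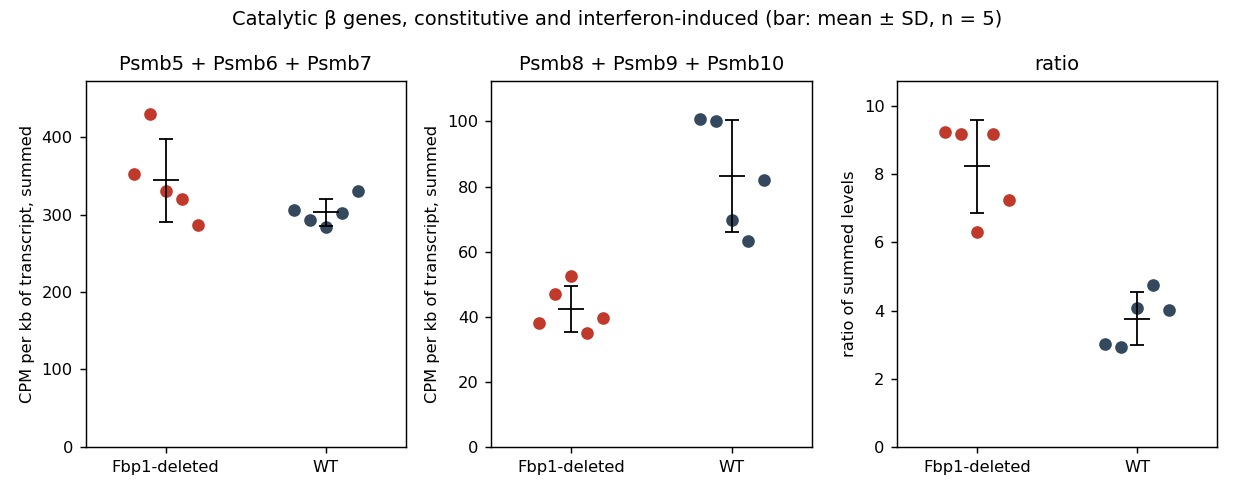
Summed level (CPM per kb of transcript) of Psmb5, Psmb6 and Psmb7 and of Psmb8, Psmb9 and Psmb10 in each library, and their ratio, with Fbp1-deleted livers left of WT livers and bars for the mean ± SD (n = 5). The ratio is 6.30 to 9.25 in Fbp1-deleted livers and 2.93 to 4.75 in WT livers.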

How the data were processed

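RNA of 10 livers was isolated with a column kit and made into Illumina libraries that keep no strand, per the labels' protocols. In the deposited table each value is an estimated count of a gene in a liver, and all are whole numbers. CASAVA, Salmon and the build GRCm38 are named, without versions, in the submitters' processing notes, and whether the estimates were adjusted for transcript length is not given in the sources used here. The series' design text also describes STAR, featureCounts and DESeq2 in a parallel route. Identifiers were matched to GENCODE M21 (GRCm38): 52175 by version, 1180 with another version and 37 not at all. Salmon splits reads between similar transcripts, and 10 of 38 members share exonic bases with another annotated gene.

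Genes were filtered with filterByExpr, scaled by TMM and tested with edgeR 4.0.16 in R 4.3.3 (robust quasi-likelihood F test, Fbp1-deleted against WT, with no covariates). P-values were adjusted by Benjamini-Hochberg across all 15392 genes, and 0.05 was the threshold. The SE is the size of the log2 change over the square root of F, and intervals are 95%. The fit was tested on simulated data. Log2 CPM used a prior count of 2. The biological coefficient of variation was 0.235. Counts of any pair of libraries within a group differed by a chi-square per degree of freedom of at least 14.2, so none was a copy of another. The design text speaks of biological replicates but no litter or batch is given. P-values set the difference between the groups against the spread between these samples. A litter, batch or sex difference between the groups could not be told apart from the deletion.

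Alternatives were other scalings and filters, a fit without robust shrinkage, and removal of genes above 1% of the mean library. Others were limma 3.58.1 (voom), DESeq2 1.42.0, a stricter threshold, leaving out each library and, added after seeing the data, a transcript length offset. Counts of alternatives for a single gene leave out the stricter threshold. Values in every library are given for called members, Nfe2l1 and the catalytic genes. Of the related lists, at most 4 called genes by adjusted p are given, plus those needed to say what a list holds. The members and lists were chosen with earlier results of these data known.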

Additional observations from a re-analysis of the deposited data

Results flagged for a closer look

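Of 104 pairs of a group with a gene or a summary value, 3 had 1 library far from the rest of the group. Dixon's criterion was used, where chance gives about 1 in 20. Psma5 was at 47.2 CPM in WT replicate 4, and the next highest WT library was at 44.2 CPM. Psmd11 was at 83.5 CPM in Fbp1-deleted replicate 8, below the next lowest of that group at 95.8 CPM and still above every WT library. Nfe2l2 was at 79.7 CPM in Fbp1-deleted replicate 10, and the next highest of that group was at 60.9 CPM.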

How the results depend on the processing

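Psmd9 and Psmd11 passed the threshold in all 20 alternatives, with adjusted p up to 0.00211 and 0.0321 (edgeR, DESeq2 or limma). Psmd12 passed in 17, Psma5 in 12, Psmc4 in 11 and Psmd6 in 9. These 20 leave out the stricter threshold of 0.01, at which only Psmd9 and Psmd11 of the members passed. Over 47 genes, 809 of 939 values kept direction and side of the threshold, 97 lost the call, 16 gained it and 17 changed sign. Members called higher (6) numbered 3 with upper quartile scaling, library totals or no filter, 2 at an adjusted p of 0.01 and 13 with the length offset. Core genes called higher (1) numbered 0 under upper quartiles, library totals, no filter and an adjusted p of 0.01, 2 with DESeq2 and 4 with the offset. Regulatory genes called higher (5) numbered 3 under upper quartiles, library totals or no filter, 2 at 0.01 and 9 with the offset. Members, and core genes, called lower (0) numbered 1 with no filter and with DESeq2, which is Psma8. The core median of 0.07 turned to -0.01 under upper quartiles and -0.02 under totals, and the regulatory median of 0.22 was 0.14 under totals. With the length offset they were 0.15 and 0.25. At an adjusted p of 0.01, genes called higher (1636) numbered 678 and genes called lower (1542) numbered 633. At the threshold of 0.05, 51.5% of calls were higher, against 40.3% under upper quartiles and 37.7% under totals. Leaving out 1 library gave 1066 to 2060 genes higher and 1019 to 1858 lower, 2 to 8 members higher and 0 to 1 lower, 0 to 2 core genes higher and 0 to 1 lower, 2 to 7 regulatory genes higher and 0 lower, and medians of 0.04 to 0.10 for the core and 0.20 to 0.26 for the regulatory genes. The sign changed for genes near 0: Psma4 (0.05 without WT replicate 1, 0.03 without Fbp1-deleted replicate 8, 0.09 with the offset), Psma7 (0.02 and 0.00 without WT replicates 1 and 5, 0.01 and 0.02 without Fbp1-deleted replicates 8 and 9, 0.11 with the offset, lowest on leaving out 1 library -0.08 and in all alternatives -0.11), Psmb3 (0.02 without WT replicate 5, 0.03 without Fbp1-deleted replicate 10, 0.12 with the offset, lowest on leaving out 1 library -0.08 and in all alternatives -0.11), Psmd3 (0.06 without WT replicate 5, 0.01 without Fbp1-deleted replicate 10, 0.00 with the offset) and Psmb6 (-0.05 and -0.07 under upper quartiles and totals, -0.06 without Fbp1-deleted replicate 7). Apart from fewer samples or a stricter threshold, the cause was not tested. No paired analysis was possible because the groups share no replicate number.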
